A study of Mus musculus with 20 samples.

Results

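The levels of 37 white and brown adipocyte genes were followed through RNA-seq of mouse SCCVII tumors, out of 54309 genes in the table. They were chosen by name from measured values: they form a list of fat-cell and fat-synthesis genes, and 1 of the 20 libraries was set against the other 19 because of its level of such genes. That library is replicate B of the group given anti-CD8, APG-157 and anti-CTLA-4, hereafter CD8-depleted combination B, and its mate is CD8-depleted combination A. All values that set this library against the others are therefore a description, with no test. The tests concern the other 19 libraries only.

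SCCVII is a mouse squamous cell carcinoma line, grown here under the skin of immunocompetent C3H/HeOuJ mice, and whole tumors were sequenced. The groups had 2 libraries each, replicates A and B. The groups were anti-CD8 + APG-157 + anti-CTLA-4, then APG-157 alone, anti-PD-1 alone, anti-CTLA-4 alone, anti-CD8 alone, and control. The pairs were APG-157 + anti-PD-1, also APG-157 + anti-CTLA-4, and further anti-PD-1 + anti-CTLA-4. The triple combination joined APG-157 with both checkpoint antibodies. In the paper, saline was the control of the experiment without anti-CD8. Its CD8 depletion was a separate experiment, randomized on its own, and the text there names IgG as the control. The labels do not say which experiment gave the control or the APG-157 + anti-CTLA-4 libraries. The part of the experiment in any difference of the anti-CD8 groups from control was not tested. APG-157, a botanical drug from Curcuma longa that contains curcumin, was eaten in the chow, and the antibodies were injected into the peritoneum: anti-PD-1 and anti-CTLA-4 block checkpoint receptors of T cells, and anti-CD8 depletes CD8+ T cells. The labels name the treatment and the tumor, and do not say that replicates A and B are different mice, so each p-value reflects only how far these libraries scatter, which may be technical.

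White adipocytes store triglyceride in a single large lipid droplet and secrete hormones such as adiponectin and leptin. Brown adipocytes hold many small droplets and burn fatty acids for heat through UCP1, a proton channel of the inner mitochondrial membrane. Both take up fatty acids released by lipoprotein lipase, esterify them, and draw on PPARγ and C/EBPα, the transcription factors of fat-cell differentiation. Fat synthesis from citrate, in contrast, is also run by many tumor cells, so the enzymes of that pathway are not specific to fat.

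Library totals lay between 43.9 and 72.1 (median 54.9, in units of 1e6 counts), with 49.7 in CD8-depleted combination B, and the TMM factors that scale library size lay between 0.960 and 1.04. Levels are CPM, the count per 1e+06 of the scaled library size. They are not divided by transcript length, so they are compared between libraries and not between genes. In whole tumors, fewer cells of a type and less RNA per cell cannot be told apart.

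The promoters shown here stand for the classes of gene in the list: a secreted white-fat hormone (Adipoq), a droplet coat protein (Plin1), the brown-fat channel that was nearly absent here (Ucp1) and a synthesis enzyme that the tumors also expressed (Fasn). They are the 250 bases upstream of the start in RefSeq on GRCm38.p6, at chr16:23146286-23146535 on the plus strand for Adipoq, chr7:79732777-79733026 on the minus strand for Plin1, chr8:83290098-83290347 on the plus strand for Ucp1 and chr11:120824548-120824797 on the minus strand for Fasn. Capitals mark CCAAT in Adipoq and Fasn, TTGCNNAA, a C/EBP-type motif, in Plin1, and AGGTCA, the half-site bound by PPARγ and other nuclear receptors, in Ucp1, each searched on both strands.
Adipoq: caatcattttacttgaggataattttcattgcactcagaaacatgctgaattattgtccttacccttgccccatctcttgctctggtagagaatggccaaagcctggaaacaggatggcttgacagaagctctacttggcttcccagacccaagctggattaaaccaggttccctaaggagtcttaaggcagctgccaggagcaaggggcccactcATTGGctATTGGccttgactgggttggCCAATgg
Plin1: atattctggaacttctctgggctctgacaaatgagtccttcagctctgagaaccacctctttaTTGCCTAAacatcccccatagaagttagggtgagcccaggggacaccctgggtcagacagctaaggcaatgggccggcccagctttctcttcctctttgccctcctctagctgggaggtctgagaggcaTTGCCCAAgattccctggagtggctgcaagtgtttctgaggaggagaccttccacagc
Ucp1: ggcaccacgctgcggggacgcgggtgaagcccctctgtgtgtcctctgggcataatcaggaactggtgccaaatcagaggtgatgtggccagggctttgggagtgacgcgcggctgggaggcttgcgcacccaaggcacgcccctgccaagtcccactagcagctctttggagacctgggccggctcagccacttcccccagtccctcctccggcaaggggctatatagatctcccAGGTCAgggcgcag
Fasn: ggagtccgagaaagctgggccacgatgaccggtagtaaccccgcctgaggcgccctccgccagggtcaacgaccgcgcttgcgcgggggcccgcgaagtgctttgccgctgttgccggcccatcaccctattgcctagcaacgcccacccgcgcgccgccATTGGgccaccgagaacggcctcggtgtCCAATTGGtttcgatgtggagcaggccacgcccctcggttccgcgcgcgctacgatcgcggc

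The Adipoq window held 3 CCAAT matches, the nearest at positions −7 to −3 from the start, and the Fasn window held 3, of which those at −62 to −58 and −59 to −55 overlap. Plin1 had TTGCNNAA at −187 to −180 and at −58 to −51, and Ucp1 had AGGTCA at −14 to −9. A promoter entry was found for 25 of the 37 genes. Among these, TTGCNNAA occurred in 4 (9.56% of all 32851 promoter windows of 250 bases), AGGTCA in 8 (14.0%) and CCAAT in 9 (33.9%). TATAAA occurred in 2 (12.4%) and GGGCGG in 10 (32.7%). A gene was counted if any of its entries matched, while the percentages are per window, so they are not directly comparable. A match is a description of these letters and not evidence of binding.

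CD8-depleted combination B had the highest level of 33 of the 37 genes among the 20 libraries, where it was highest for 27.5% of 36299 genes with a count. It was at least 10-fold above the highest other library for 19 of the 37 (3.81% of those genes) and at least 100-fold above for 8 (0.923%). Around that threshold, Car3 stood just inside at 10.5-fold and Lipe just outside at 8.97-fold. The 37 genes took 1.30% of all counts in CD8-depleted combination B, against 0.0721% to 0.143% (median 0.0989%) in the other 19. Since the library was chosen for these genes, nothing further is read from these counts.

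**Figure D1:**
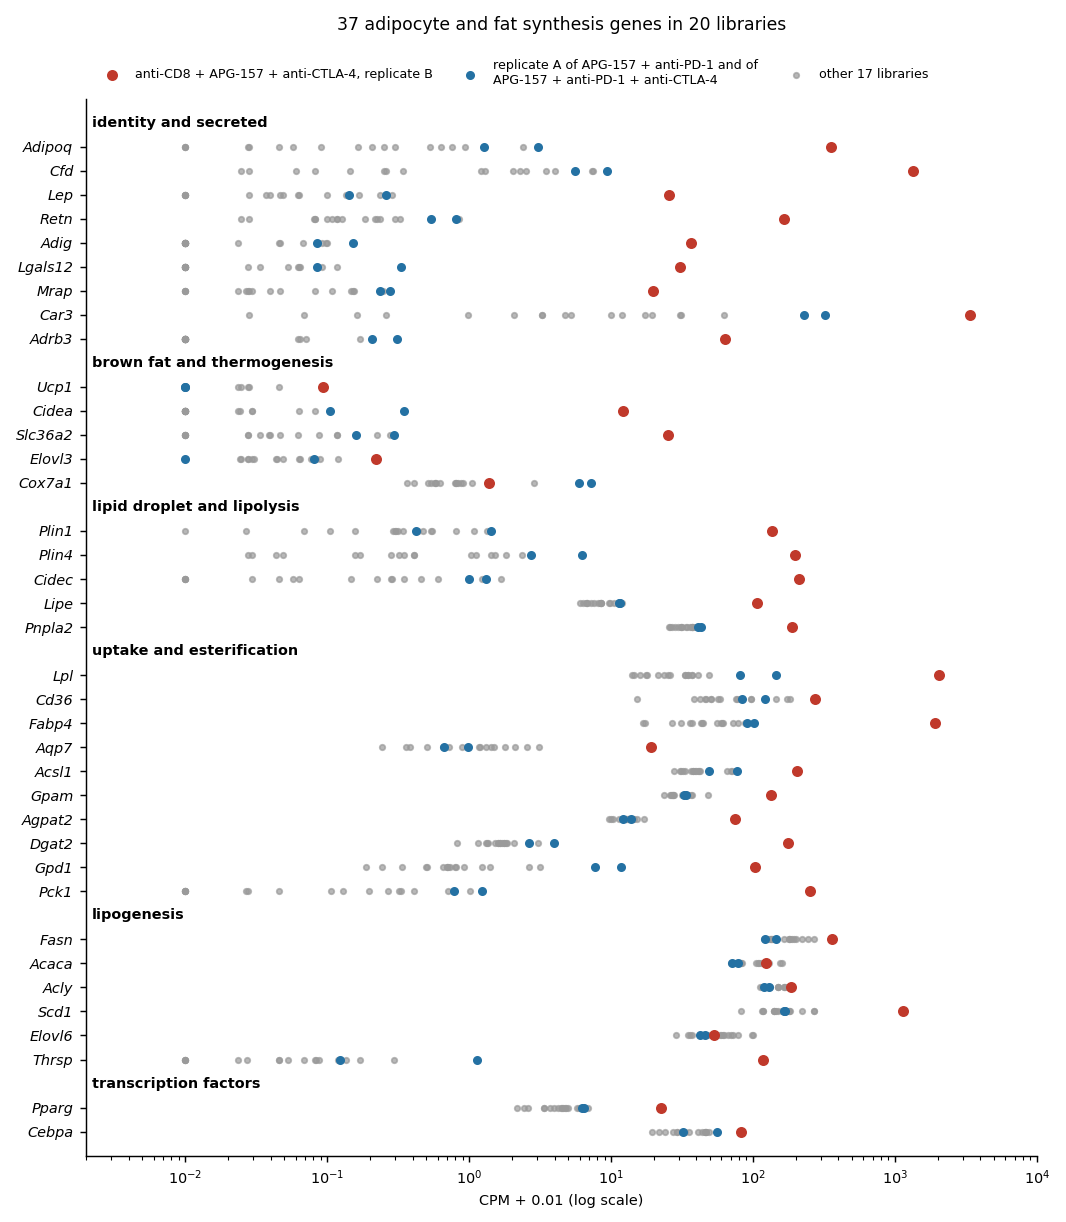
Levels of the 37 genes in each of 20 libraries, in CPM plus 0.01 on a log axis, grouped by role, with 1 point per library. CD8-depleted combination B (red) is highest for 33 genes, whereas it lies among the other libraries for Cox7a1, Acaca, Acly and Elovl6, and the 2 libraries with the most skeletal muscle counts (blue) lead the rest for many genes.

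The adipocyte identity and secreted genes stood furthest apart, with all 9 at least 10-fold above the highest other library and a median ratio of 116. Adipoq, which encodes adiponectin, had 352 CPM in CD8-depleted combination B, against a lowest, median and highest of 0, 0.198 and 3.03 CPM in the other 19. Cfd, the complement factor adipsin made by fat cells, had 1339 CPM, against 0.0147, 1.28 and 9.37 CPM. Lep, the satiety hormone leptin, had 25.7 CPM, against 0, 0.0389 and 0.275 CPM. None of these ranges overlapped, and the mate, CD8-depleted combination A, had 0.52 CPM of Adipoq, within the range of the other groups.

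The same separation held for the less known members of this class. Retn (resistin, a hormone of mouse white fat) had 166 CPM, against at most 0.842 CPM elsewhere, and Adig (adipogenin) had 36.8 CPM, against at most 0.143 CPM. Lgals12, a galectin of fat cells, had 30.6 CPM, against at most 0.321 CPM, and Mrap, the partner of the ACTH receptor, had 19.6 CPM, against at most 0.267 CPM. Adrb3, the adrenergic receptor through which nerves trigger lipolysis, had 63.3 CPM, against at most 0.302 CPM, and no count at all in 13 of the other 19 libraries.

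Car3 behaved differently. This carbonic anhydrase is abundant in fat but also in slow skeletal muscle, and it had 3356 CPM in CD8-depleted combination B, against 0.0183, 5.19 and 319 CPM (lowest, median and highest) in the other 19. The high values outside CD8-depleted combination B were 319 CPM in replicate A of the triple combination and 230 CPM in replicate A of APG-157 + anti-PD-1. The summed level of 12 skeletal muscle genes was 5306 and 4253 CPM in these 2 libraries and 29.4 CPM in CD8-depleted combination B. The part of muscle in the Car3 level was not tested.

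**Figure D2:**
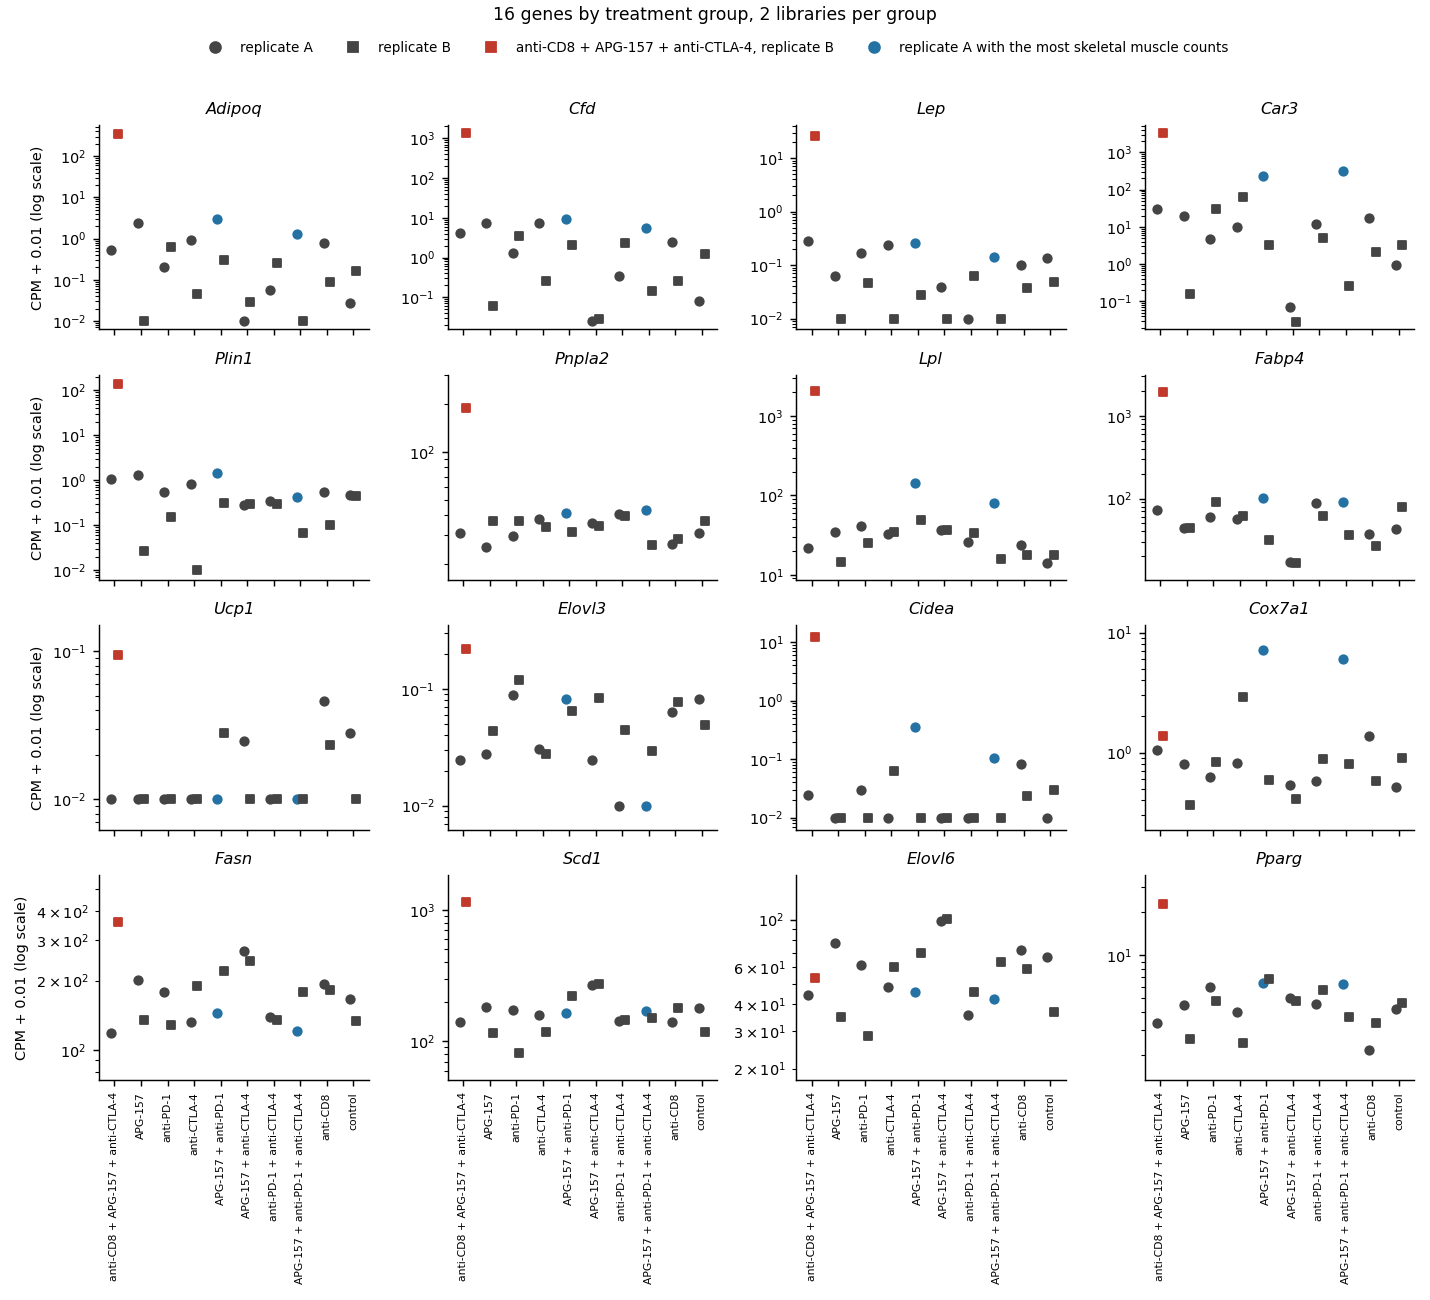
Levels of 16 genes, in CPM plus 0.01 on log axes that do not start at 0, by treatment group with control at the right, with a circle for replicate A and a square for replicate B. CD8-depleted combination B (red) stands above every other library for Adipoq, Cfd, Lep, Plin1, Lpl and Fabp4, whereas Cox7a1 is highest in the 2 libraries with the most skeletal muscle counts (blue) and Elovl6 in APG-157 + anti-CTLA-4.

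The brown label was not borne out by the defining brown-fat genes. Ucp1 had 4 counts (0.0838 CPM) in CD8-depleted combination B, just over the level of 3 counts (0.0628 CPM), and 6 counts in all the other 19 libraries together, with no count in 14 of them. Elovl3, a fatty acid elongase induced by cold in brown fat, had 10 counts (0.209 CPM), against at most 0.110 CPM elsewhere. At these depths neither gene can be placed reliably between libraries.

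Other members of the brown class were high. Cidea, a droplet protein of brown and beige fat that white fat also makes at times, had 12.1 CPM (580 counts), against 0, 0 and 0.339 CPM in the other 19 (lowest, median and highest). Slc36a2, an amino acid transporter of the brown-fat surface, had 25.1 CPM, against at most 0.285 CPM. Cox7a1, a cytochrome oxidase subunit of heart, skeletal muscle and brown fat, had 1.36 CPM, against 0.354, 0.795 and 7.20 CPM, and thus lay within the range of the others. The highest Cox7a1 levels, 7.20 and 5.96 CPM, were in replicate A of APG-157 + anti-PD-1 and replicate A of the triple combination, the same pair with the most muscle counts.

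Brown-fat genes outside the 37 gave a divided picture. CD8-depleted combination B was highest for 5 of 10: Dio2, the deiodinase that activates thyroid hormone, had 37.01 CPM against at most 12.7 CPM, and Kcnk3, a potassium channel, had 8.21 CPM against at most 0.51 CPM. Prdm16, a regulator of brown-fat fate, had 2.26 CPM against at most 0.755 CPM, and Ppargc1a and Ebf2 exceeded the others by smaller margins. Zic1 and Lhx8, which mark the interscapular brown depot, had 7 counts and 1 count. Among 5 genes that differ between fat depots, Nnat (66.5 CPM against at most 0.51 CPM), Agt (9.38 against at most 0.214 CPM) and Hoxc8 (38.6 against at most 14.2 CPM) were highest in CD8-depleted combination B, while Hoxc9 (8.97 CPM) and Hoxc10 (5.66 CPM) were lowest there. The fat signal is therefore described by the identity and droplet genes common to fat cells, and not as brown fat.

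All 5 lipid droplet and lipolysis genes were highest in CD8-depleted combination B, at a median of 31.6-fold above the highest other library. Plin1, the coat protein that guards the droplet until a lipolytic signal arrives, had 135 CPM, against 0, 0.33 and 1.41 CPM in the other 19. Cidec, which fuses droplets, had 212 CPM, against at most 1.67 CPM, and Plin4, a coat protein of nascent droplets that muscle also makes, had 197 CPM, against 0.0179, 0.398 and 6.24 CPM.

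The 2 lipases of the class were present in every tumor. Pnpla2, the triglyceride lipase ATGL that takes the first step of lipolysis, had 188 CPM in CD8-depleted combination B, against 25.5, 34.1 and 43.3 CPM in the other 19. Lipe, the hormone-sensitive lipase of the second step, had 106 CPM, against 6.05, 8.46 and 11.9 CPM. Both ranges stayed apart, at 4.33-fold and 8.97-fold above the highest other library.

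The 10 genes of fatty acid uptake and esterification were all highest in CD8-depleted combination B, with 4 at least 10-fold above the others. Lpl, the lipase that frees fatty acids from lipoproteins, had 2037 CPM, against 14.0, 33.1 and 145 CPM in the other 19 (lowest, median and highest). Fabp4, which carries fatty acids within fat cells, macrophages and endothelium, had 1925 CPM, against 16.8, 55.9 and 101 CPM. Pck1, which in fat supplies the glycerol backbone of triglyceride, had 250 CPM, against 0, 0.119 and 1.23 CPM. Dgat2, an enzyme of the last step of triglyceride synthesis, had 177 CPM, against at most 3.94 CPM.

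The remaining 6 differed less. Cd36, the fatty acid receptor of fat, macrophages and capillaries, had 274 CPM, against 15.2, 75.8 and 181 CPM, which is 1.52-fold above the highest other library and the smallest ratio of this class. Acsl1, which activates fatty acids to acyl-CoA, had 204 CPM against at most 77.7 CPM, and the acyltransferases Gpam (135 CPM) and Agpat2 (75.1 CPM) stood 2.79-fold and 4.41-fold above the highest other library. Aqp7, the glycerol channel of fat cells, had 19.1 CPM against at most 3.10 CPM. Gpd1, which makes glycerol 3-phosphate in fat, liver and muscle, had 104 CPM, against 11.8 and 7.73 CPM in the 2 muscle-rich libraries, which led the others.

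Lipogenesis had the lowest median ratio to the highest other library, 1.16. Scd1, which desaturates stearate, had 1142 CPM in CD8-depleted combination B, against 82.1, 159 and 270 CPM in the other 19 (lowest, median and highest). Fasn, the synthase that builds palmitate, had 359 CPM, against 119, 166 and 270 CPM. Thrsp, a regulator of fat synthesis in fat and liver, had 118 CPM, against 0, 0.0593 and 1.12 CPM, and was the only one of the 6 at least 10-fold above the others.

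For the other enzymes of this class CD8-depleted combination B was not the highest library. Elovl6, which lengthens palmitate, had 53.1 CPM, against 28.5, 58.9 and 101 CPM, so it lay under the median of the others. Acaca, the acetyl-CoA carboxylase, had 124 CPM, against 70.2, 84.0 and 160 CPM, and Acly, the ATP-citrate lyase, had 185 CPM, against 112, 149 and 188 CPM. Among 15 lipogenesis genes outside the 37, 10 were highest in CD8-depleted combination B but only Pcx, the pyruvate carboxylase, was at least 10-fold above the others (96.3 CPM against at most 6.02 CPM). Of 12 cholesterol synthesis genes, 0 were highest in it and 2 were lowest.

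The 2 transcription factors were measured in all 20 libraries. Pparg had 22.5 CPM in CD8-depleted combination B, against 2.15, 4.53 and 6.84 CPM in the other 19, and Cebpa had 81.9 CPM, against 19.5, 35.4 and 55.5 CPM. The ratios to the highest other library, 3.30 and 1.48, were thus small beside those of the identity genes.

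Of 16 further adipocyte genes that are not among the 37, 12 were highest in CD8-depleted combination B and 8 were at least 10-fold above the others. The ratio was 271 for Tshr, the thyrotropin receptor, 108 for Acvr1c, an activin-type receptor of fat, and 56.7 for Adora1, an adenosine receptor that restrains lipolysis. Cav1, Pde3b, Abhd5 and Adra2a were not highest there.

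Many genes of other tissues were also high in CD8-depleted combination B. The summed level of 8 motile cilia genes was 715 CPM, against 0.0147 to 0.287 CPM in the other 19, that of 9 oviduct and uterus genes was 1904 CPM, against 57.8 to 80.7 CPM, and that of 6 simple epithelium genes was 993 CPM, against 2.61 to 9.54 CPM. These 3 lists were chosen after the values were seen. All 8 motile cilia genes, all 6 simple epithelium genes and 7 of the 9 oviduct and uterus genes were highest there, while Hoxa10 was lowest (22.5 CPM against 23.5 to 37.2 CPM) and Hoxa11 lay within the range of the others (10.1 CPM against 9.72 to 15.9 CPM). A further list of 9 squamous carcinoma or epithelium genes, which shares Epcam and Cdh1 with the simple epithelium list, went both ways. Its sum was 1442 CPM, within the 1073 to 2246 CPM of the other 19. In that list 4 genes were highest in CD8-depleted combination B, and 2, the epithelial keratins Krt8 and Krt18, were lowest. The part of these tissues in the fat gene levels was not tested.

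Lists of other cells that lie near fat were mixed. The sum of 5 lymph node genes was 62.4 CPM, against 0.407 to 3.49 CPM, with Ccl21a at 60.3 CPM. The sum of 8 sebaceous gland genes was 224 CPM, against 5.66 to 43.0 CPM, of which Mgst1, which many tissues make, gave 216 CPM. Of the 8 genes 6 were highest in CD8-depleted combination B, among them Far2 (4.08 CPM against at most 0.624 CPM) and Krt79 (1.68 against at most 0.110 CPM), while Awat1 and Dgat2l6 had 0 counts there and at most 1 and 2 counts in any other library. The sum of 6 mammary genes was 12.3 CPM, against 0.036 to 1.84 CPM, with Prlr at 10.3 CPM and the milk genes Csn2, Wap and Lalba at 0 counts. The part of these cells in the fat gene levels was not tested.

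Lists of cells common in the tumor stroma gave no separation of that size. The sum of 6 macrophage genes was 2000 CPM, against 3175 to 6511 CPM, and all 6 were lowest in CD8-depleted combination B. The 6 progenitor and fibroblast genes summed to 694 CPM, against 725 to 1077 CPM, and the 6 endothelium genes to 216 CPM, against 97.0 to 247 CPM. The 4 Schwann cell genes summed to 26.2 CPM, above the 10.6 to 23.9 CPM of the others. Highest in CD8-depleted combination B were 3 of 6 endothelium, 2 of 4 Schwann cell and 2 of 6 progenitor and fibroblast genes. Of these 3 lists 0 genes were at least 10-fold above the others, and 2 progenitor and fibroblast genes were lowest there.

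**Figure D3:**
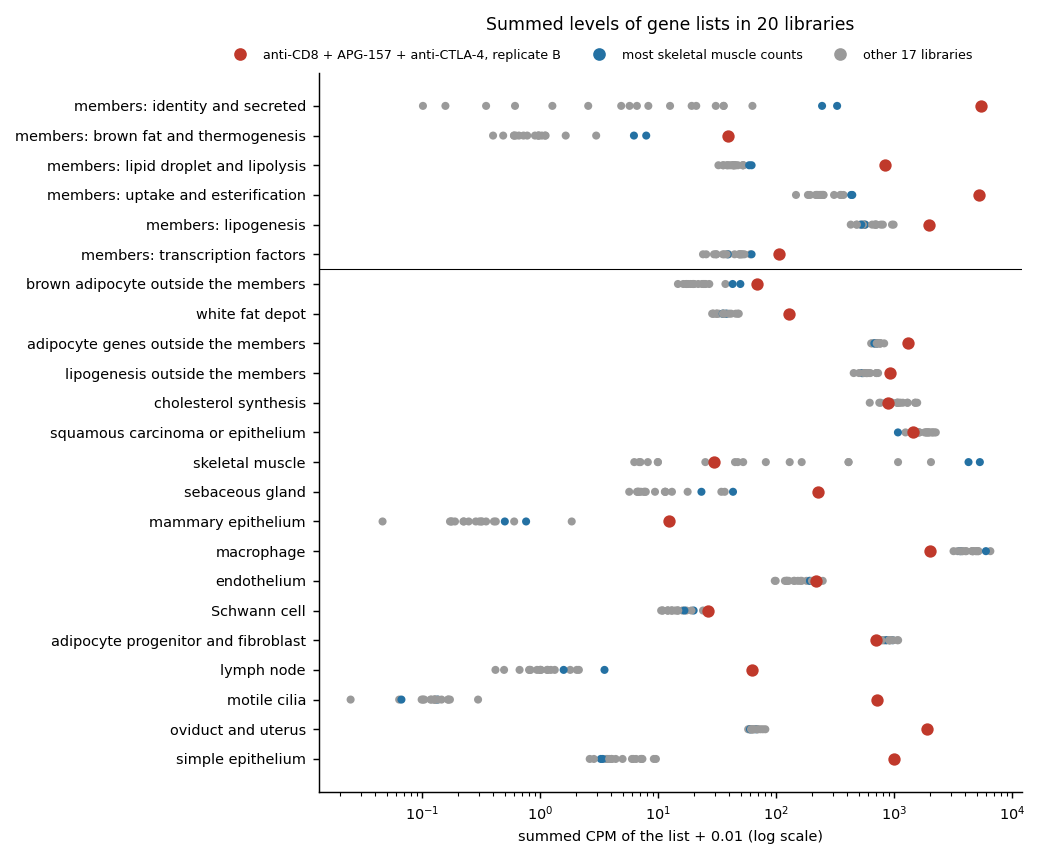
Summed CPM plus 0.01 of each gene list, on a log axis, with 1 point per library and the classes of the 37 genes above the line. CD8-depleted combination B (red) exceeds the others for every class of the 37 and for the motile cilia (715 CPM), oviduct and uterus (1904 CPM) and simple epithelium (993 CPM) lists, but has the lowest macrophage sum (2000 CPM).

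The genes with the largest ratio of CD8-depleted combination B to the highest other library, at 10 CPM or more in it, were not fat genes. The first 10 with a symbol outside the 37 were Sprr2f, Padi1, A2ml1, Ccdc153, Sec14l3, Rnf112, Serpina1e, Dnah5, Krt19 and Clca1, among them a dynein of motile cilia (Dnah5) and a keratin of simple epithelium (Krt19). Krt19 had 219 CPM, against at most 0.116 CPM elsewhere, and Dnah5 had 200 CPM, against at most 0.103 CPM. Among the 10764 genes at that level were 34 of the 37, which ranked from 143 for Adig to 8403 for Elovl6, while Ucp1, Elovl3 and Cox7a1 lay under it.

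Each count was also divided by the Adipoq count of the same library, as a description only, since the library was chosen for such genes. Apart from CD8-depleted combination B, 7 libraries had at least 30 Adipoq counts. CD8-depleted combination B lay within the range of these 7 for 17 of the other 36 genes, and below it for the rest. For Ucp1, Elovl3, Mrap, Cidea and Adrb3 the range began at 0, so CD8-depleted combination B could not lie below it. Nothing on the composition of the fat signal is therefore read from the 17, and the same share over all genes was not computed for CD8-depleted combination B. Per Adipoq count it had 3.80 Cfd counts (3.04 to 8.09 in the 7), 0.603 of Cidec (0.429 to 1.33), 0.711 of Pck1 (0.361 to 0.756), 0.0870 of Lgals12 (0.0448 to 0.106) and 0.472 of Retn (0.119 to 0.611).

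The Adipoq level itself was 352 CPM in CD8-depleted combination B and 0.52 to 3.03 CPM in the 7, a difference of over 100-fold. In contrast, CD8-depleted combination B had 0.779 Cd36 counts per Adipoq count (27.7 to 107 in the 7), 5.47 of Fabp4 (18.4 to 145), 1.02 of Fasn (47.7 to 257) and 3.25 of Scd1 (54.2 to 270). These are genes that the tumors expressed where Adipoq was near 0. The 7 denominators are low, at 34 to 170 counts, and the ratios share them.

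Among the other 19 libraries, traces of the fat genes were uneven. Replicate A of APG-157 + anti-PD-1 was the highest of the 19 for 15 of the 37 genes and first or second for 24, and replicate A of the triple combination was highest for 6. Both were the libraries with the most skeletal muscle counts. The lower end was as uneven: 14 of the 37 had no count in at least 1 of the 19 libraries, and 10 stayed under 1 CPM in all of them.

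The effect of treatment was then tested in these 19 libraries, with 34 of the 37 genes passing the filter on low counts (all but Adig, Ucp1 and Elovl3) among 20303 genes. For each of the 13 comparisons, edgeR called 0 of the 34 at a Benjamini-Hochberg adjusted p under 0.05. Among all genes it called 0.143% for APG-157 + anti-CTLA-4 against control, 0.00985% for CD8-depleted combination A against control, 0.891% for the main effect of anti-CTLA-4, 0.00493% for that of anti-PD-1 and 0% in the other 9 comparisons. Without the filter on low counts, edgeR called 3 to 20 of the 37 genes over the 13 comparisons (8.11% to 54.1%), and 0.532% to 12.1% of 35367 genes. In each comparison the share of the 37 was above that of all genes, so the 0 calls depend on the filter. The fit had 9 residual degrees of freedom and a biological coefficient of variation of 32.8% over all genes. In counts simulated on the design that sets APG-157 + anti-CTLA-4 beside control, 62 of 100 genes changed by a log2 of 2 were called by edgeR, and 100 of 100 changed by 4. For the main effect of APG-157 the counts were 68 of 100 at a log2 of 1 and 100 of 100 at 2. Changed genes were drawn only from genes above a minimum mean count, and all genes were given the same spread. Lep, Lgals12, Adrb3, Cidea, Mrap and Slc36a2, with at most 19 counts in any of the 19 libraries, lay under that minimum. By their mean count over the 19 libraries, Adipoq, Plin1, Cidec, Pck1, Retn and Thrsp lay under it as well. The recovery rates therefore do not describe such genes.

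At an unadjusted p under 0.05 in edgeR, 6 of the 34 passed for APG-157 + anti-CTLA-4 against control, beside 14.4% of all genes, and 3 for APG-157 + anti-PD-1 (3.48%). There were 3 for the triple combination (6.57%), 2 after anti-PD-1 + anti-CTLA-4 (8.19%), and 1 each for APG-157 (1.12%), anti-CTLA-4 (9.21%), anti-CD8 (1.98%) and CD8-depleted combination A (1.65%), and 0 for anti-PD-1 (1.01%). For the main effects, taken over 8 libraries with and 8 without an agent, there were 5 for APG-157 (9.78%), 2 for anti-CTLA-4 (12.8%), while anti-PD-1 had 4 (12.9%). The test of any difference among the 10 groups gave 3 (10.3%).

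DESeq2 adjusted p-values, run as an alternative, called 2 of the genes for APG-157 + anti-CTLA-4 against control (3.46% of all genes), 1 for APG-157 + anti-PD-1 (0.0246%) and 0 for each other group against control (0.832% of all genes after anti-PD-1 + anti-CTLA-4, 0.493% for anti-CTLA-4, 0.241% for the triple combination, 0.0345% for CD8-depleted combination A, 0.0246% for APG-157, 0.0148% for anti-PD-1 and 0.00985% for anti-CD8). It called 2 for the main effect of anti-PD-1 (1.85%), 2 for that of anti-CTLA-4 (4.66%) and 0 for that of APG-157 (0.0788%). Over the 10 groups, DESeq2 called 6 (9.22%), namely Cd36, Acsl1, Fabp4, Lpl, Plin4 and Car3.

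The clearest values were those of APG-157 + anti-CTLA-4. Cd36 had 174 and 181 CPM in its 2 libraries, against 42.1 and 38.6 CPM in control, and the pair lay above all 17 other libraries of the test, which reached 145 CPM. The log2 fold change was 2.14 ± 0.58 (SE, n = 2 each), with an adjusted p of 0.175 from edgeR and 0.00195 from DESeq2. Fabp4 was lower, with 17.3 and 16.8 CPM against 43.0 and 78.6 CPM in control, below the 26.8 to 101 CPM of the 17 other libraries. Its log2 fold change was −1.83 ± 0.55, with an adjusted p of 0.209 from edgeR and 0.00881 from DESeq2.

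Cd36 and Fabp4 are both made by fat cells, macrophages and endothelium. In this comparison edgeR called 0 of 6 endothelium genes, but 4 had an unadjusted p under 0.05, all lower. Their sums of 97.0 and 98.8 CPM, against 164 and 201 CPM in control, were the lowest of the 20 libraries. In the macrophage list 1 of 6 had such a p, higher, and the median log2 fold change was −0.02. The part of these cells in the result was not tested. The identity genes of fat were at or near 0 in this group: Adipoq had 0 and 0.0183 CPM, against 0.0179 and 0.155 CPM in control. Both APG-157 + anti-CTLA-4 libraries resembled each other more than those of any other group, with a coefficient of variation of 4.23% between them against 20.9% to 47.1% in the other 8 groups with 2 libraries, though they differed beyond sampling noise. The study's text speaks of little tumor left to resect in this group, and the labels leave it unsaid whether the pair is of different tumors. The p-values above may therefore rest on technical spread. Summed as 1 sample, an alternative chosen after seeing the data, they gave Cd36 a log2 fold change of 2.14 with an edgeR adjusted p of 0.706.

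The lipogenic enzymes were high in the same 2 libraries. Fasn had 270 and 243 CPM in APG-157 + anti-CTLA-4, against 166 and 133 CPM in control (log2 fold change 0.78 ± 0.27, edgeR adjusted p = 0.252), and Scd1 had 269 and 270 CPM, against 180 and 118 CPM. Elovl6 had 98.4 and 101 CPM, against 66.4 and 36.99 CPM in control, and Acaca had 160 and 156 CPM. For Fasn, Scd1, Elovl6 and Acaca the pair lay above all 17 other libraries, whereas for Acly, Acsl1, Lpl, Pparg and Thrsp it overlapped them. These genes were picked after their values were seen, and none passed the adjusted threshold in edgeR. In cholesterol synthesis, edgeR called 0 of 12 genes and 5 of them had an unadjusted p under 0.05, all higher in APG-157 + anti-CTLA-4.

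**Figure D4:**
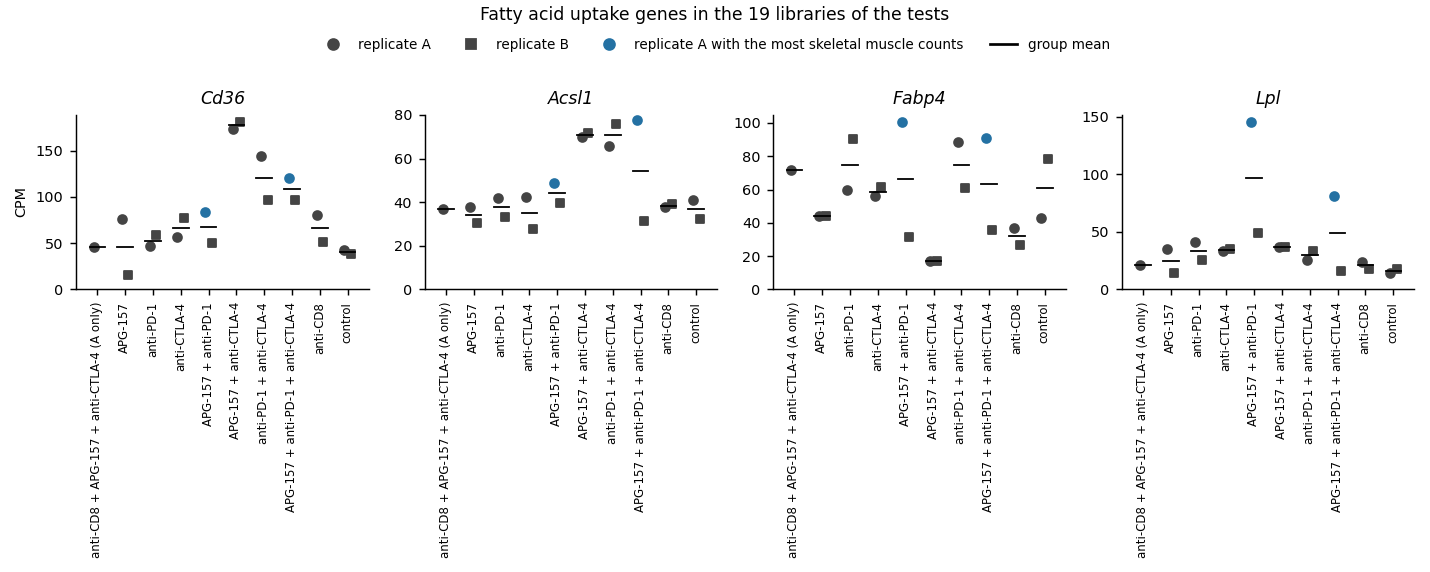
Levels of Cd36, Acsl1, Fabp4 and Lpl in CPM by group, control at the right, with 1 point per library and a line at the group mean, without CD8-depleted combination B. Cd36 is highest and Fabp4 lowest in the pair from APG-157 + anti-CTLA-4 (174 and 181 CPM of Cd36, 17.3 and 16.8 CPM of Fabp4), and Lpl is highest in replicate A of APG-157 + anti-PD-1 (145 CPM), 1 of the 2 libraries with the most skeletal muscle counts (blue).

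In the other groups a gene with the smallest p is given for each comparison. For APG-157 + anti-PD-1 it was Lpl, at 145 and 48.8 CPM against 14.0 and 17.7 CPM in control (log2 fold change 2.61 ± 0.74, unadjusted p = 0.00502, edgeR adjusted p = 1). Without replicate A, which also had 4253 CPM of skeletal muscle genes, the log2 fold change of Lpl was 1.62. For anti-PD-1 + anti-CTLA-4 it was Acsl1, at 65.8 and 75.7 CPM against 41.2 and 32.2 CPM in control (0.95 ± 0.34, edgeR adjusted p = 0.521). In both comparisons every treated library lay above both control libraries.

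For the remaining 6 groups the gene was Plin4, and there control decided the value. Control had 1 Plin4 count in each library, so the ratio is given with its 95% counting interval, which covers counting error only. The ratio to control was 61.9 (16.8 to 517) for APG-157 with 133 counts, 16.3 (4.15 to 140) for anti-PD-1 with 32 counts and 57.1 (15.4 to 477) for anti-CTLA-4 with 112 counts. It was 75.3 (20.5 to 628) for the triple combination, 39.9 (10.8 to 334) for anti-CD8 and 97.6 (26.5 to 815) for CD8-depleted combination A.

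Plin4 differed widely between the replicates of some groups and little in others: anti-CTLA-4 had 1.03 and 1.10 CPM, anti-PD-1 had 0.336 and 0.274 CPM, and anti-PD-1 + anti-CTLA-4 had 0.401 and 0.398 CPM. The 133 counts of APG-157 came as 2.35 CPM in replicate A and 0.0337 CPM in replicate B, and the triple combination had 2.74 and 0.0388 CPM, against 0.0179 and 0.0194 CPM in control. The edgeR adjusted p of Plin4 was 0.525 for anti-CTLA-4, 0.730 for the triple combination and 0.996 to 1 for the other 4. DESeq2 called Plin4 for APG-157 + anti-PD-1 (adjusted p = 0.0491), where the ratio was 206 (56.6 to 1703) and replicate A had 6.24 CPM against 1.41 CPM in replicate B.

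As a list, the 34 genes had a median log2 fold change against control of 0.89 after APG-157 + anti-PD-1, with 30 positive, beside a median of −0.01 over all genes. For the triple combination it was 0.40 beside −0.01, for anti-CTLA-4 0.41 beside 0.03, for anti-CD8 0.32 beside −0.02, and for APG-157 + anti-CTLA-4 0.00 beside −0.03. It was 0.15 for APG-157, 0.20 for anti-PD-1, 0.21 for CD8-depleted combination A with 0.23 after anti-PD-1 + anti-CTLA-4. In each comparison 2 to 5 of the genes had no count in 1 of the groups, and setting these to the level of 3 counts per group gave 0.89 for APG-157 + anti-PD-1, 0.34 for the triple combination and 0.04 for APG-157 + anti-CTLA-4. All these comparisons share the same 2 control libraries. Over the skeletal muscle genes the median, on the same log2 scale, was 5.08 in APG-157 + anti-PD-1, 5.54 for the triple combination and 3.96 for anti-CTLA-4, with 0 of 12 called by edgeR. Leaving out both muscle-rich libraries left only replicate B in APG-157 + anti-PD-1 and in the triple combination, and 31 genes passed the filter. The median of the fat genes was then 0.16 for APG-157 + anti-PD-1 and −0.37 for the triple combination. For anti-CTLA-4 it was 0.17, but both libraries of that group were kept, among them replicate B with 2044 CPM of the skeletal muscle genes. That value therefore does not show the median without muscle.

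The main effect of each agent set 8 libraries with it against 8 without, over the groups of a factorial of the 3 agents. The APG-157 + anti-CTLA-4 pair, which may not be of different tumors, counts among the 8 libraries with APG-157 and with anti-CTLA-4. It also counts among the 8 without anti-PD-1. Leaving out a single library keeps its mate, so it does not show how far a value rests on this pair. For anti-CTLA-4 the gene with the smallest p was Cd36, with a lowest, median and highest of 56.7, 109 and 181 CPM with the antibody and 15.2, 48.7 and 83.9 CPM without it. The log2 fold change was 1.14 ± 0.28, with an adjusted p of 0.09995 from edgeR and 3.49e-04 from DESeq2, and the ranges overlapped. Acsl1 had 27.9, 67.8 and 77.7 CPM with anti-CTLA-4 and 30.4, 38.8 and 48.6 CPM without it (0.55 ± 0.17, adjusted p = 0.173 from edgeR and 0.0252 from DESeq2).

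Single libraries moved these calls. With replicate A of APG-157 left out, edgeR gave Cd36 a log2 fold change of 1.54 and an adjusted p of 0.00199, and with replicate B of APG-157 left out 0.96 and 0.0387. With replicate B of the triple combination left out, Acsl1 had 0.68 and an edgeR adjusted p of 0.0148. In APG-157 the 2 libraries had 75.8 and 15.2 CPM of Cd36, so the group was widely spread.

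For anti-PD-1 the gene with the smallest p was Fabp4, with 31.3, 74.6 and 101 CPM with the antibody and 16.8, 44.0 and 78.6 CPM without it (0.78 ± 0.27, adjusted p = 0.342 from edgeR and 0.0444 from DESeq2). DESeq2 also called Car3 (log2 fold change 4.16, adjusted p = 0.0142), at 0.252, 8.53 and 319 CPM with anti-PD-1 and 0.0183, 2.11 and 62.3 CPM without it. Both of the muscle-rich libraries lie on the anti-PD-1 side, and without them the log2 fold change of Fabp4 was 0.32 (edgeR adjusted p = 1.00). In the skeletal muscle list 7 of 12 genes had an unadjusted p under 0.05 in edgeR for this effect, all higher with anti-PD-1. The same held for 4 of 6 endothelium genes (median log2 0.44) and for 3 of 6 progenitor and fibroblast genes (median 0.48), all higher and 0 called. The part of these cells in the result was not tested.

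For APG-157 the gene with the smallest p was Aqp7, with 0.235, 0.769 and 1.41 CPM with the drug and 0.497, 1.41 and 3.10 CPM without it (−1.17 ± 0.42, edgeR adjusted p = 0.505). Of the 5 genes with an unadjusted p under 0.05, Scd1, Fasn and Plin4 were higher with APG-157 and Aqp7 and Fabp4 were lower. The ranges of Scd1 overlapped, at 115 to 270 CPM with APG-157 and 82.1 to 180 CPM without it.

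**Figure D5:**
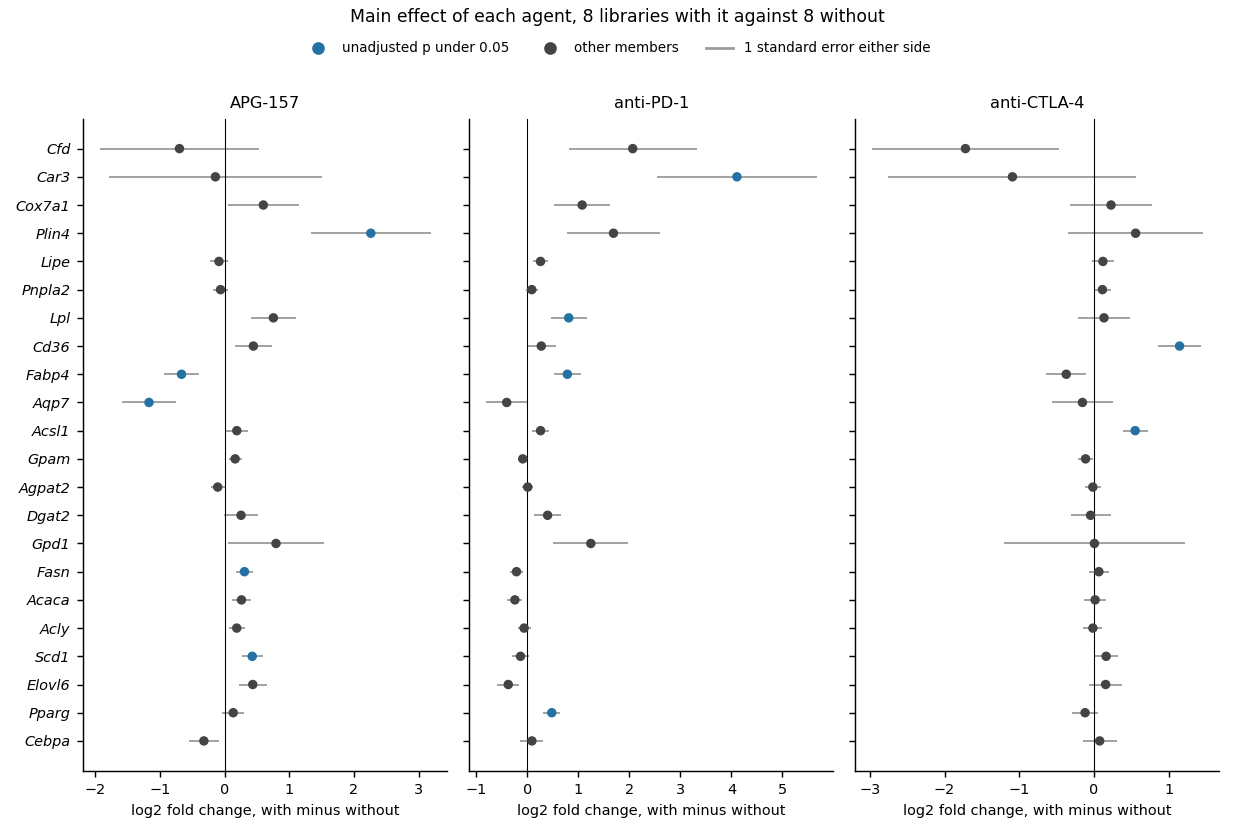
Log2 fold change of the 22 genes with a mean of at least 1 CPM over the 19 libraries, for the main effect of each agent (8 libraries with it minus 8 without), with 1 standard error either side. Blue marks an unadjusted p under 0.05 in edgeR, such as Cd36 (1.14) and Acsl1 (0.55) for anti-CTLA-4; 0 genes passed the adjusted threshold.

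Over the 10 groups together, the genes with the smallest p in edgeR were Acsl1, Cd36, Thrsp, Pparg and Fabp4, with an edgeR adjusted p of 0.483 for Acsl1, Cd36 and Thrsp, 0.493 for Pparg and 0.501 for Fabp4. DESeq2 gave adjusted p-values of 0.0133 for Acsl1, 0.00111 for Cd36 and 0.0119 for Fabp4. Acsl1 was highest in both libraries of anti-PD-1 + anti-CTLA-4, in both of APG-157 + anti-CTLA-4 and in replicate A of the triple combination, at 65.8 to 77.7 CPM, and its other libraries of the test lay at 27.9 to 48.6 CPM. None of the genes that define fat cells (Adipoq, Cfd, Lep, Retn, Plin1, Cidec) was called in any of the 13 comparisons, either by edgeR with the filter on low counts or by DESeq2, which left Lep, Retn or Cidec without an adjusted p in some of them.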

How the data were processed

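Levels were taken from the gene table of the 20 libraries. It holds expected counts: the authors trimmed reads with Trimmomatic 0.39, estimated transcript counts with Salmon 1.5.0 on GRCm39 per the submitters' processing notes, and deposited them summed per gene without scaling. Of its 54309 genes, 51484 had a symbol, and 0 sample columns were unmapped. Counts were rounded. The deposited log2 table was not used. The 37 genes and all lists were chosen with earlier results of these data known.

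CPM used TMM factors of 20 libraries. Tests used edgeR 4.0.16 in R 4.3.3 (filterByExpr minimum 10 and total 15, robust quasi-likelihood, Benjamini-Hochberg over 20303 genes) on 19 libraries, without CD8-depleted combination B. Ratios to the highest other library used a denominator of at least 3 counts, while those of Plin4 to control used its 2 control counts. Named were 16 genes with their levels, the gene with the smallest p where none was called (the 5 smallest over 10 groups), 10 outside genes with the largest ratio, and genes of the lists. Others named were chosen after their values were seen.

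Alternatives were RLE factors or total counts, no filter or a mean of 1 CPM, all 20 libraries, unrounded counts, the replicate letter as a block, each library left out, DESeq2 1.42.0 and, chosen after seeing the data, both muscle-rich libraries left out and APG-157 + anti-CTLA-4 summed. Figures used matplotlib 3.10.9 with Python 3.11.15. The edgeR tests were tested on simulated counts, in which changed genes had a minimum mean count and all genes the same spread. For APG-157 + anti-CTLA-4 against control there were 6 false calls among 18840 unchanged genes. For the main effect of APG-157, 68 of 100 genes changed by a log2 of 1 and 100 of 100 changed by 2 were recovered. That effect had 10 false calls among 18871 unchanged genes.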

Additional observations from a re-analysis of the deposited data

Results flagged for a closer look

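Gene lists of other tissues gave a signal in CD8-depleted combination B, a library outside the tests, at 10 times or more the higher of both control libraries. The summed levels there were 1904 CPM for the oviduct and uterus list against 76.8 and 62.1 CPM in control, 993 CPM for simple epithelium against 3.82 and 2.84 CPM, and 715 CPM for motile cilia against 0.162 and 0.156 CPM. They were 224 CPM for the sebaceous gland list against 7.83 and 9.37 CPM in control, 62.4 CPM for lymph node against 2.03 and 0.991 CPM, and 12.3 CPM for mammary epithelium against 0.215 and 0.311 CPM. As given above, most of the sebaceous gland sum came from Mgst1, of the lymph node sum from Ccl21a and of the mammary sum from Prlr. No test was run on these sums, since the library was chosen for its values.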

How the results depend on the processing

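The count of genes called was compared with 0 by edgeR in each of the 13 comparisons. Over 608 settings of 35 results, 552 kept their direction and side of the threshold, 33 passed it, 23 counts changed and 0 reversed. Without the low-count filter, edgeR called 6 genes for APG-157, 4 for anti-PD-1, 8 for anti-CTLA-4, 11 for APG-157 + anti-PD-1, 15 for APG-157 + anti-CTLA-4, 5 for anti-PD-1 + anti-CTLA-4, 10 for the triple combination, 4 for anti-CD8, 3 for CD8-depleted combination A, 11 for the main effect of APG-157, 13 for that of anti-PD-1, 8 for that of anti-CTLA-4, and 20 over the 10 groups, beside 188 to 4267 of all 35367 genes (0.532% to 12.1%). With all 20 libraries it called 3 over the 10 groups. DESeq2 called 1 for APG-157 + anti-PD-1, 2 for APG-157 + anti-CTLA-4, 2 for the main effect of anti-PD-1, 2 for that of anti-CTLA-4 and 6 over the 10 groups. Leaving out each library gave 0 to 1 for the main effect of anti-CTLA-4. Leaving out both muscle-rich libraries, chosen after seeing the data, gave 1 for APG-157 + anti-CTLA-4 (Fabp4, log2 fold change −1.84, edgeR adjusted p = 0.0443). The cause was not tested. The replicate letter as a block gave 0 in every comparison. Over 36 pairs of groups, deviations between the letters correlated at −0.29 to 0.61 (median 0.02), and 11 exceeded 0.1. Pairing by letter was thus not seen over all groups, while sharing among some of the groups was not tested. The sample numbers run through all A libraries before all B libraries. The description of 19 genes at least 10-fold higher in CD8-depleted combination B held at 18 with total counts, 19 to 20 with each library left out, 22 against the median and 25 at 4-fold.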
